A study of Mchenga conophoros and Petrotilapia sp. 'chitimba' with 16 samples.

Results

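Run-on loci are assembled transcript fragments that lie next to an annotated gene without overlapping it. They carry the class code p in the deposited count table, and 4273 of the 4274 loci with that code held at least 1 count in any of the 16 libraries. They make up 6.96% of the 61384 loci in the table. Fragments of this kind can form where sequence reads continue past the annotated end of a gene. Transcription runs beyond the cleavage and polyadenylation site before the polymerase lets go, many genes use a more distant polyadenylation site than the annotation holds, and brain transcripts are known in other vertebrates for long 3′ ends. A fragment of this kind can therefore be an unannotated 3′ end, read-through RNA or a separate transcript, and the table does not tell these apart.

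Whole brains of 8 cichlids, all adult males, gave the libraries: 4 Petrotilapia sp. 'chitimba' (PC) and 4 Mchenga conophoros (MC). A mirror was placed in the home tank of 2 fish per species for 15 min, to which the species are described as responding with different aggression, and the other 2 fish were controls. Brains were taken 90 min later, and each fish gave an immunoprecipitated library (IP) and an input library. The IP was made with an antibody to phosphorylated ribosomal protein S6, a mark of recently active neurons, so that it holds RNA on the ribosomes carrying that mark, and the input is total RNA of the same cleared lysate. There are thus 4 IP and 4 input libraries of each species, processed in 2 batches that each held 1 fish of every species and condition. Ages and strains are not stated in the labels used here. In bulk tissue, fewer cells of a type and less RNA per cell cannot be told apart.

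IP libraries held 1872019 to 11186928 counts and input libraries 10073251 to 23594320. The neuronal markers nefm, snap25 and syt1 together had 1039 to 3093 CPM (counts scaled to 1000000 per library) in the IP libraries, 1751 to 3121 in PC inputs and 2972 to 4051 in MC inputs. The glial markers fabp7, s100b and slc1a2 together had 1200.0 to 3553 CPM in the IP libraries, 6513 to 10937 in PC inputs and 4366 to 5724 in MC inputs, so that their inputs did not overlap between the species. The muscle marker actc1 had 1.54 to 46.7 CPM in PC inputs, 0 to 3.57 in MC inputs and 0 to 5.35 in the IP libraries. The retina and pineal markers opn1sw and rho together had at most 4.94 CPM in PC inputs and 5.69 in MC inputs. They had 0 CPM in the IP libraries. Whether muscle or retina tissue in some samples plays a part in the results below was not tested. No symbol of the blood and pituitary marker lists was matched in the table.

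Run-on loci were short, and they were close to their genes as their class code requires. Their median length was 518 bp (200 to 7186 bp), against a median span of 6426 bp for annotated genes. 3604 lay on 22 linkage groups with 80 to 314 on each, 668 on unplaced sequence and 1 on the mitochondrial genome. Only 366 had a strand in the table, and 3907 had none, so the nearest annotated gene on the same strand could be found for 365 of them, next to 363 genes. With the nearest gene on either strand, all 4273 could be paired. The median distance was then 648 bp and 89.7% lay downstream of that gene. With the reference transcript given for the locus, 3091 could be paired, of which 3091 lay downstream and 3087 within 2000 bp. Closeness and side thus go with the class code and are not separate results. When the strand was used where there was one and ignored otherwise, 4272 were paired, 4058 of them within 2000 bp, and this pairing is used below unless stated. A second gene lay within 2000 bp of 1042 of them (24.4%), so the source of the reads is uncertain there. The table names 3979 gene symbols for them, of which 3692 have 1 run-on locus each.

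Most run-on loci were faint. The median of the mean input level was 0.571 CPM, 1575 (36.9%) reached 1 CPM, 316 reached 10 CPM and 12 reached 100 CPM. In every input library 1254 (29.3%) were detected, while 44 were detected in every IP library. Of those 1254, 373 (29.7%) had no count in any IP library, against 18.1% of annotated genes detected in every input, 40.6% of intronic loci and 28.8% of unannotated loci. The IP libraries were shallower, which limits detection there. The number expected at an equal depth is given below. Level per length was highest next to the gene (the plot by distance). The median was 1.79 CPM per kb within 100 bp of the gene, 1.20 from there to 500 bp, 1.105 to 1000 bp, 1.001 to 2000 bp and 1.089 beyond. Loci with a strand were longer (median 758 bp), nearer (133 bp) and more abundant (2.25 CPM per kb) than loci without one (502 bp, 710 bp and 1.09 CPM per kb). In 2709 of the 3922 pairs whose gene had input counts (69.1%), the gene had the higher mean input CPM. Both reached 1 CPM in 1136 pairs, and the run-on locus was the higher in 442 of these. The Spearman correlation of the paired levels was -0.068 there and -0.009 over all 3922 pairs.

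**Figure D1:**
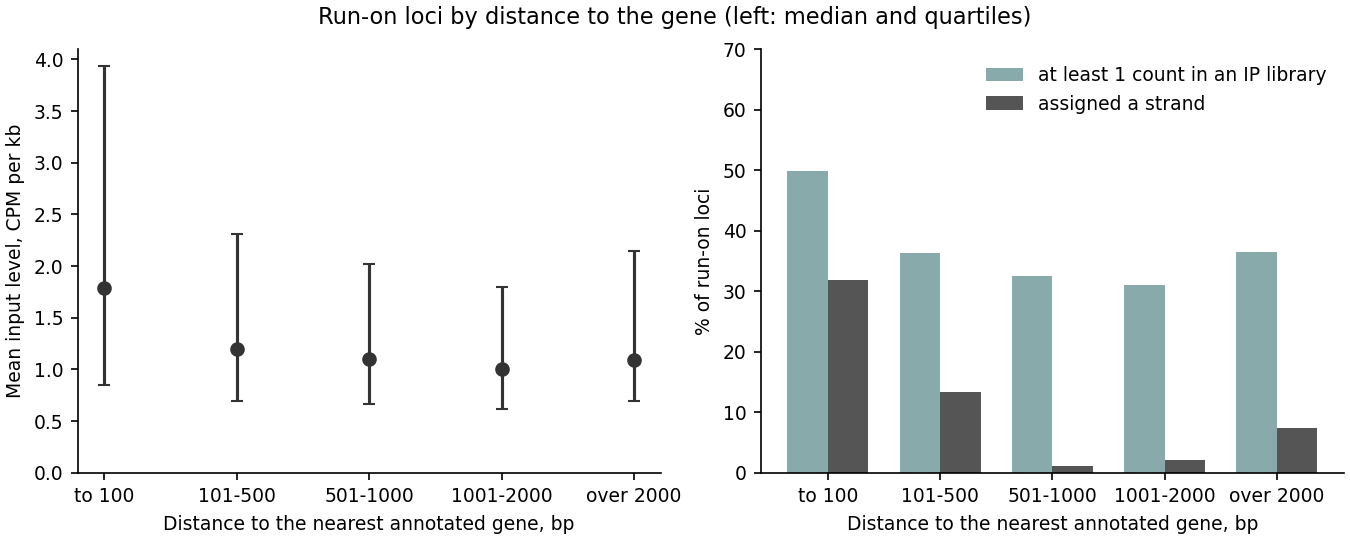
Left, mean input level per kb of run-on loci (median, with bars from the lower to the upper quartile) by distance to the nearest annotated gene in bp. Right, the percentage of run-on loci with at least 1 count in an IP library and with an assigned strand. The nearest bin had 1.79 CPM per kb, 49.9% of loci seen in IP and 31.9% with a strand, each the highest of the 5 bins.

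Among the run-on loci with the highest mean input CPM, the first was mitochondrial. It lies at 15697 to 16582 of that genome, on the plus strand, 73 bp after the tRNA gene APK84_gt21 (coordinates are those of the table, whose genome build is not given in the sources used here). In IP it had 442 and 1188 CPM in PC mirror fish, 443 and 997 in PC controls, 52.9 and 67.5 in MC mirror fish and 30.6 and 109 in MC controls. In input it had 992 and 651 CPM in PC mirror fish, 1205 and 981 in PC controls, 1055 and 2543 in MC mirror fish and 994 and 974 in MC controls. Every MC library was far lower in IP than in input, while 2 PC fish, mirror fish 23 and control fish 24, had more in IP. Its log2 fold change of IP over input was -2.91 ± 0.38 (SE; adjusted p = 0.00124, edgeR quasi-likelihood test), and it is 1 of 2 run-on loci that passed with each fish as a replicate block (-2.90 ± 0.48, adjusted p = 3.36e-06). The PC minus MC difference of that enrichment was 4.29 ± 0.74 and did not pass (adjusted p = 0.106; unadjusted p = 8.99e-05, edgeR). It passed in 2 of 15 alternatives, with the replicate block (4.43, adjusted p = 0.00492) and with DESeq2, and its adjusted p reached 1 with 1 fish left out.

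The other abundant run-on loci lie next to genes known by locus number, except the one next to slc5a5, the gene of the sodium iodide symporter known from the thyroid. The 8 with the highest mean input CPM include 1 of 3092 bp on linkage group 6, 91 bp from LOC101467726, with mean input levels of 189 CPM in PC and 330 CPM in MC. They also include 1 of 4746 bp on linkage group 17, 112 bp from LOC101484207, with 88.9 CPM in PC and 197 CPM in MC. IP counts varied widely between fish: the locus next to LOC101467726 had 3 IP counts in PC mirror fish 23 and 2 in MC mirror fish 9, but 3129 in MC mirror fish 21. The run-on locus next to LOC101470268 was among the highest in both fractions, with mean levels of 327 CPM over the IP libraries and 99.4 CPM in PC and 182 CPM in MC inputs.

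As a whole, run-on loci took a smaller share of the counts in IP than in input of the same fish, in 8 of 8 fish (the plot of shares by library). The IP share was 0.569% and 0.634% in PC mirror fish, 0.944% and 0.804% in PC controls, 1.17% and 1.62% in MC mirror fish and 1.18% and 1.21% in MC controls. The input share was 1.29% and 0.808% in PC mirror fish, 1.17% and 1.01% in PC controls, 2.10% and 1.82% in MC mirror fish and 1.87% and 1.63% in MC controls. The means were 1.02% ± 0.347 in IP and 1.46% ± 0.459 in input (SD, n = 8 each; difference -0.448 percentage points, exact sign-flip test over fish, two-sided, p = 0.0078, the smallest that 8 fish allow; adjusted p = 0.0313 over 12 tests of this kind). At an equal depth of 1872019 counts, 352 ± 107 run-on loci were expected to be detected in IP and 2131 ± 261 in input (SD, n = 8 each; exact sign-flip p = 0.0078, adjusted p = 0.0313). The expected number was not computed for all loci or for other classes. Of all loci tested, 57.4% were called lower in IP (below), so the fall in number is not shown to be particular to run-on loci. The share of annotated genes was lower in IP in 6 of 8 fish and that of unannotated loci in 4 of 8. The intronic share was higher in IP in 8 of 8 fish, at 0.802% to 1.27% in PC IP against 0.566% to 0.767% in PC input, and 1.74% to 3.29% in MC IP against 1.22% to 2.11% in MC input.

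**Figure D2:**
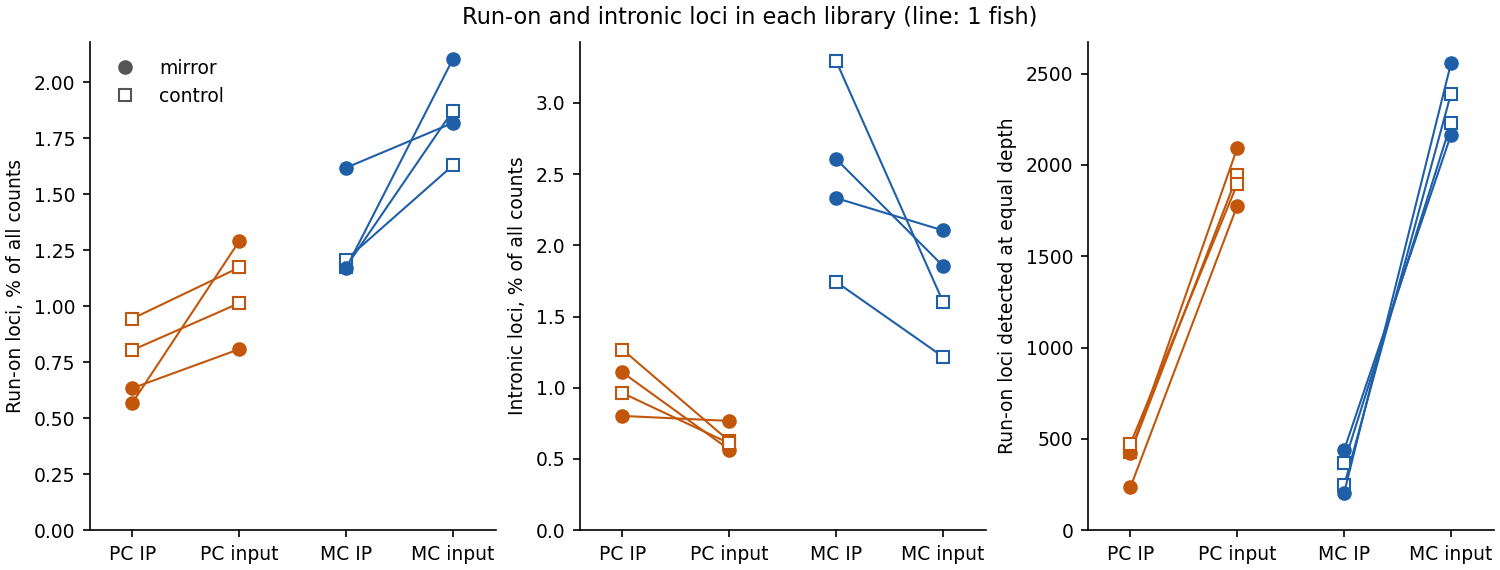
Share of all counts on run-on loci (left, %) and on intronic loci (middle, %), and number of run-on loci detected at equal depth (right), in the IP and input libraries of PC and MC. A line joins the 2 libraries of a fish, filled circles are mirror fish and open squares controls. All lines of the left panel run lower in IP than in input, those of the middle panel higher in IP, and PC inputs sit below MC inputs in every panel.

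The species differed in the same measure. All 4 PC inputs held a smaller share on run-on loci (0.808% to 1.29%) than all 4 MC inputs (1.63% to 2.10%). The means were 1.07% ± 0.209 in PC inputs and 1.86% ± 0.195 in MC inputs (SD, n = 4 each; exact permutation test, two-sided, p = 0.0286, the smallest that 4 against 4 allow, adjusted p = 0.0429). The IP shares did not overlap either, with 0.738% ± 0.170 in PC fish and 1.29% ± 0.217 in MC fish (SD, n = 4 each; exact permutation p = 0.0286, adjusted p = 0.0429). At equal depth 1927 ± 131 run-on loci were expected in PC inputs and 2335 ± 176 in MC inputs (SD, n = 4 each; exact permutation p = 0.0286, adjusted p = 0.0429). Between the species too, the expected number was not computed for other classes of locus. Within batch a the PC minus MC difference of the input share was -0.757 percentage points and within batch b -0.813. The intronic share of the inputs moved with the species as well (0.566% to 0.767% in PC, 1.22% to 2.11% in MC), as did the summed glial markers (6513 to 10937 CPM in PC, 4366 to 5724 CPM in MC), and their part in the result was not tested.

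Set against the genes on the same strand, run-on loci were again lower in IP and lower in PC. The log2 ratio of their summed counts to the summed counts of the nearest gene on the same strand (365 loci) was lower in IP in 8 of 8 fish, at -1.48 ± 0.88 in IP and -0.70 ± 0.87 in input (SD, n = 8 each; exact sign-flip p = 0.0078, adjusted p = 0.0313). The median over the 181 pairs with a mean input of at least 1 CPM on both sides gave a difference of 0.00542 (exact sign-flip p = 0.969). That median was 0 in all 8 IP libraries, the value of a pair without counts once 0.5 CPM is added to both. In input it was -0.657 to -0.384 in PC and 0.0703 to 0.785 in MC. The difference of the medians therefore cannot show whether the ratio changed in IP. Without the pairing by fish, the exact permutation p of the summed ratio was 0.0957. In input the ratio ran from -1.85 to -1.07 in PC and from -0.42 to 0.40 in MC, with means of -1.45 ± 0.35 and 0.06 ± 0.36 (SD, n = 4 each; exact permutation p = 0.0286, adjusted p = 0.0429). A smaller share of run-on counts per gene count in PC was also found with the nearest gene on either strand (difference -1.12, exact permutation p = 0.0286). Annotated genes took 78.8% to 84.7% of the counts in PC inputs and 75.8% to 78.5% in MC inputs. The ratio also depends on the genes, and their part in its species difference was not tested.

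Mirror and control inputs overlapped in these measures, but each group pools fish of both species. Their spread thus includes the species difference above. The test left species out, so it cannot show that a mirror effect is absent. Within batch a the run-on share of mirror and control inputs was 1.29% and 1.17% in PC and 2.10% and 1.87% in MC. Within batch b it was 0.808% and 1.01% in PC and 1.82% and 1.63% in MC. The run-on share was 1.505% ± 0.574 in mirror fish and 1.42% ± 0.398 in controls (SD, n = 4 each; exact permutation p = 0.8, adjusted p = 0.8). The log2 ratio to the genes was -0.62 ± 1.11 in mirror fish and -0.78 ± 0.72 in controls (exact permutation p = 0.771, adjusted p = 0.8).

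Locus by locus, 2279 of the 4273 run-on loci had enough counts to be tested between IP and input, and 1504 passed an adjusted p of 0.05 (edgeR quasi-likelihood test over 29597 loci), 2 higher and 1502 lower in IP. Of all loci tested, 57.8% passed, 0.331% higher and 57.4% lower. The median log2 fold change was -5.35 over the run-on loci tested and -4.97 over all loci and -5.33 over annotated genes, so the calls are close to the background of these libraries. These medians describe loci that passed the count filter, which a locus could pass through the inputs alone. Filtered within 1 fraction, 2237 run-on loci passed in the inputs and 431 in IP, so the size of these medians partly follows from the filter. With each fish as a replicate block, 2 run-on loci passed, both lower in IP (0.612% of all loci passed), the mitochondrial one and the one next to nat16, an N-acetyltransferase gene. The nat16 locus of 6623 bp on linkage group 3 had 71 counts over the 8 IP libraries, all in PC mirror fish 12 and control fish 11, and 9278 counts over the inputs.

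The 2 run-on loci higher in IP were those next to LOC112433331 and slc5a5. The locus next to LOC112433331, 1421 bp long on unplaced sequence, had 112 and 69.2 CPM in the IP of PC mirror fish, 62.6 and 73.6 in PC controls, 207 and 315 in MC mirror fish and 171 and 261 in MC controls. Its inputs held 8.93 and 5.55 CPM in PC mirror fish, 10.4 and 2.87 in PC controls, 33.2 and 15.6 in MC mirror fish and 7.03 and 5.46 in MC controls. Every IP library was above every input library (log2 fold change 3.51 ± 0.72 SE, adjusted p = 0.00285, edgeR quasi-likelihood test). The call was lost with the replicate block (adjusted p = 0.158), and its neighbour had no count in any IP library.

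The run-on locus of slc5a5 spans 29316434 to 29317164 of linkage group 15, on the minus strand, 91 bp downstream of the gene. It had 247 and 1168 CPM in the IP of PC mirror fish, 343 and 979.9 in PC controls, 483 and 479 in MC mirror fish and 246 and 1399.7 in MC controls. In input it had 235 and 355 CPM in PC mirror fish, 219 and 276 in PC controls, 75.6 and 93.4 in MC mirror fish and 138 and 205 in MC controls. It was higher in IP in 8 of 8 fish (1.23 ± 0.44 SE, adjusted p = 0.0319, edgeR), although the 2 fractions overlap across fish, and the call was lost in 9 of 15 alternatives, among them the replicate block (adjusted p = 0.176). In input it was higher in all PC than in all MC fish (1.52 ± 0.19 SE, adjusted p = 0.00171, edgeR). The slc5a5 gene itself had 1.27 to 4.68 CPM in PC inputs, 0.938 to 3.38 CPM in MC inputs and no count in any IP library.

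Of the 8 lower run-on loci with the largest fitted changes, 6 had no IP count, nat16 had the 71 above and tial1 had 5. Those next to LOC101478888 and LOC101488125 held 1698 and 1571 counts over the inputs and 0 over the IP libraries. With a floor of 3 counts over the 8 IP libraries, their log2 ratio of input to IP is at least 8.06 and 7.95. The one that the table names for csmd1, a gene of a large membrane protein of the brain, had 1672 input counts and 0 IP counts (at least 8.04). The 5 IP counts of the one next to tial1, an RNA-binding protein gene, were all in PC control fish 24, against 2629 input counts.

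Between the species, 2237 run-on loci were tested in input and 109 passed (edgeR quasi-likelihood test over 28742 loci), 23 higher and 86 lower in PC. Of all loci tested, 8.16% were called higher and 2.28% lower, while the run-on loci tested had 1.03% higher and 3.84% lower. Their median log2 fold change was -0.62, against 0.03 over all loci, 0.32 over annotated genes, -1.63 over intronic loci and -0.51 over unannotated loci. Above a mean log2 CPM of 1 the medians were -0.46 for 1054 run-on loci, 0.26 for annotated genes and -1.13 for intronic loci. These medians describe the loci that passed the count filter, which a locus could pass through 1 species alone. The 4 PC inputs lay below the 4 MC inputs without overlap in 425 of the run-on loci tested (19.0%, against 12.5% of all loci) and above them in 52 (2.32%, against 8.1%). The medians were alike for loci with a strand (-0.47) and without (-0.67), within 100 bp of the gene (-0.56) and over 1000 to 2000 bp away (-0.54), and downstream (-0.62) and upstream (-0.63). The fit scales the libraries by TMM factors, which were 0.35 lower on the log2 scale in PC than in MC inputs. With library totals alone, 16 run-on loci were called higher and 137 lower. Of all 28742 loci tested, 1398 were then called higher and 1245 lower, against 2345 and 655 with TMM, so lower calls rose in general. The run-on median lay 0.65 below that of all loci with either scaling. Scaling shifts all loci by nearly the same amount, so that gap cannot show whether the scaling matters. In a fit of all 16 libraries together none of the 109 was called, and 0 of all 29597 loci tested were. DESeq2 called 308 run-on loci, or 13.8%, against 20.6% of all loci.

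**Figure D3:**
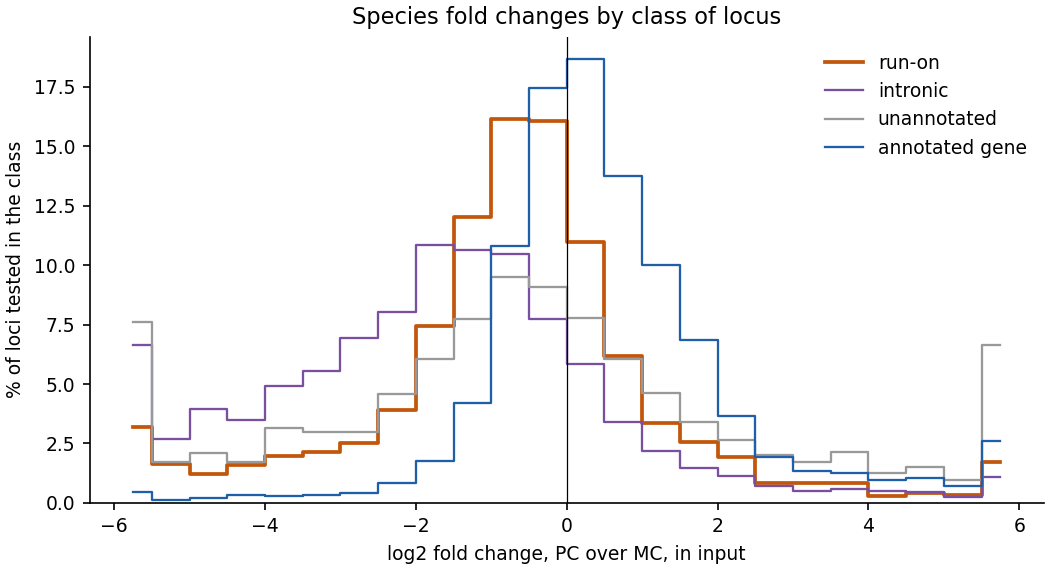
Distribution of the fitted log2 fold change of PC over MC in input, in bins of 0.5, as a percentage of the loci tested in each class, with values beyond the axis in the end bins. The run-on loci peak below 0 (median -0.62), between the intronic loci (-1.63) and the annotated genes (0.32).

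Among abundant run-on loci lower in PC, those of mef2d and ndufs3 lie next to genes that did not fall with them. These and the other loci with a mean log2 CPM above 5 were chosen after their values were seen, as were ppargc1a, crebzf, tnrc18, bean1 and timm8b below (roles of genes are as known in mammals). mef2d encodes a transcription factor that neuronal activity regulates. Its run-on locus is 4131 bp long, at 25222985 to 25227115 of linkage group 11 on the plus strand, 9 bp after the gene. In input it had 38.9 and 24.96 CPM in PC mirror fish, 42.3 and 28.7 in PC controls, 185 and 140 in MC mirror fish and 169 and 105 in MC controls. All PC fish were below all MC fish, and mirror and control fish of a species overlapped (PC over MC -1.81 ± 0.20 SE, adjusted p = 0.0012, edgeR). The mef2d gene had 4.27 to 7.12 CPM in PC and 3.39 to 10.97 CPM in MC (0.13 ± 0.46 SE, adjusted p = 0.896).

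The run-on locus of ndufs3, which encodes a core subunit of respiratory complex I, had 36.3 and 25.7 CPM in PC mirror fish, 33.0 and 28.2 in PC controls, 87.0 and 70.4 in MC mirror fish and 94.7 and 65.7 in MC controls. The gene had 77.3 and 64.5 CPM in PC mirror fish, 45.2 and 78.8 in PC controls, 16.3 and 20.2 in MC mirror fish and 25.3 and 38.3 in MC controls. Neither overlapped between the species, and they moved in opposite directions (-1.02 ± 0.20 SE, adjusted p = 0.013, for the run-on locus and 1.799 ± 0.22 SE, adjusted p = 0.00158, for the gene, edgeR). Its run-on locus is 3201 bp long and 123 bp downstream on linkage group 1.

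**Figure D4:**
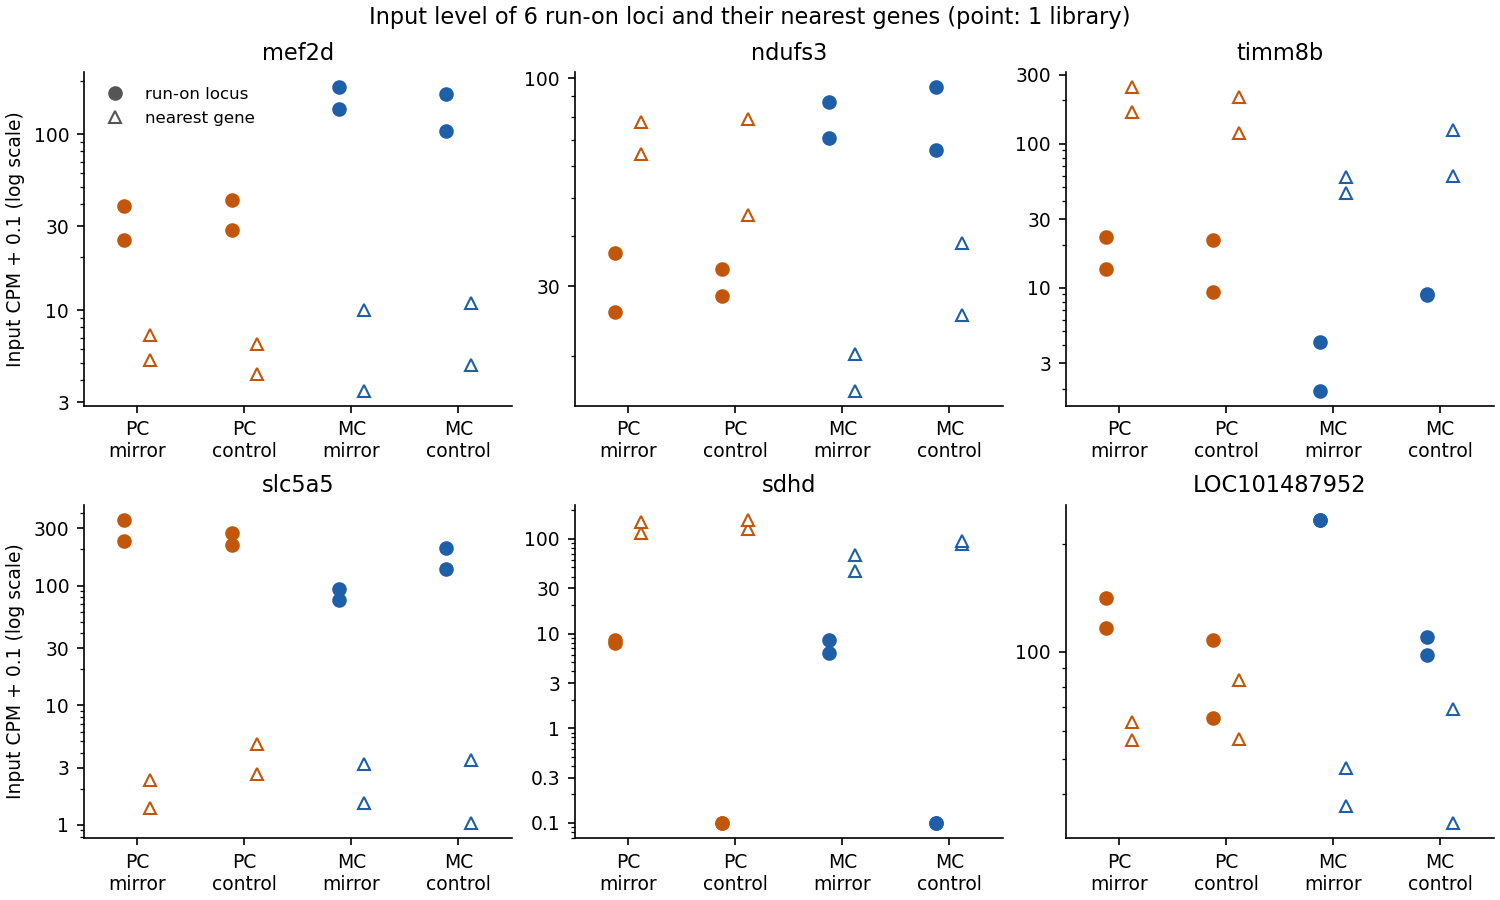
Input level (CPM + 0.1, log axis) of 6 run-on loci (filled circles) and of their nearest genes (open triangles) in PC mirror, PC control, MC mirror and MC control fish, 1 point per library. The run-on loci of mef2d and ndufs3 were lower in all PC than in all MC fish, those of timm8b and slc5a5 higher, and that of sdhd had counts in the 4 mirror fish and 0 in the 4 controls.

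Other called loci were lower in PC next to genes that did not pass. ppargc1a encodes a coactivator of mitochondrial biogenesis, and its run-on locus averaged 3.48 ± 0.732 CPM in PC and 18.5 ± 6.54 CPM in MC (SD, n = 4 each), where control fish 22 had 8.74 and the other MC fish 20.6 to 22.7 (-2.03 ± 0.39 SE, adjusted p = 0.0121, edgeR; lost without MC control fish 10). The locus of crebzf, a bZIP factor, averaged 4.26 CPM in PC and 24.1 CPM in MC (-2.30 ± 0.41, adjusted p = 0.00872, edgeR). That of tnrc18 averaged 6.04 CPM in PC and 35.8 CPM in MC (-2.20 ± 0.37, adjusted p = 0.00672, edgeR). The genes ppargc1a, crebzf and tnrc18 had log2 fold changes of 0.46, 0.15 and -0.42, none of which passed. The locus of bean1 averaged 4.31 CPM in PC and 21.1 CPM in MC (-1.93 ± 0.33, adjusted p = 0.00726, edgeR), and its gene had 3.27 (adjusted p = 0.138).

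The largest falls were in loci with almost no PC counts. The run-on locus of LOC112431100 had 0 counts in the 4 PC inputs and 467, 237, 80 and 222 in the MC inputs, a log2 ratio of MC to PC of at least 9.10 with 3 counts over the PC inputs as the floor. That of tmem167b had 0 counts in PC and 10, 99, 60 and 26 in MC (at least 6.73). The locus of dolpp1, an enzyme of dolichol recycling for N-glycosylation, had 2, 12, 3 and 19 counts in PC and 164, 230, 196 and 76 in MC (-4.78 ± 0.76, adjusted p = 0.00504, edgeR), and here the gene fell too (-4.85 ± 1.17, adjusted p = 0.0322). Of the others among the 8 largest, those next to LOC101487210, LOC101487074, tmem94 and LOC101480805, had fitted changes of -5.42 to -4.51, and the call at LOC101487074 was lost without PC fish 11 or 23 or MC fish 10 or 21.

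Of the run-on loci higher in PC, those of LOC112432334 and LOC112434605, both on unplaced sequence, had 332 to 1046 and 370 to 1064 counts in the 4 PC inputs. Both had 1 count over the 4 MC inputs, a log2 ratio of 10.94 (95% counting interval 8.47 to 16.2) and 10.78 (8.30 to 16.1). The MC input counts of the 2 loci are identical and their genes also had similar counts in every input, so whether reads were split between near-identical copies is uncertain. The locus of itgb3, the integrin beta 3 gene, had 139 to 241 counts in PC and 2 in MC (7.72, interval 5.86 to 10.8), and that of LOC101466043 had 93 to 269 in PC and 0 in MC (at least 7.02). The locus of timm8b, a chaperone of protein import into mitochondria, had 13.5 and 22.4 CPM in PC mirror fish, 9.32 and 21.3 in PC controls, 4.11 and 1.83 in MC mirror fish and 8.81 and 8.93 in MC controls. It rose with its gene (1.97 ± 0.43 SE, adjusted p = 0.021, for the run-on locus and 1.76 ± 0.19, adjusted p = 0.00107, for the gene, edgeR), a call of the run-on locus that was lost with library totals alone.

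For 1773 of the run-on loci tested the nearest gene was tested too, and 96 of these run-on loci were called. Of 78 called lower in PC, the gene was not called in 67, was called higher in 8 and lower in 3. That is a called gene in 14.1% of them, against 14.0% of all 1773 pairs, and a gene called higher in 10.3%, against 10.7% of all annotated genes tested, so these shares are those of genes in general. Of 18 called higher in PC, the gene was not called in 8, was called higher in 10 and lower in 0. The opposite pairs included those of ndufs3, sec16a, rab21, tspan18, rpl31, LOC101482297 and LOC101474830. sec16a organises the sites where cargo leaves the endoplasmic reticulum: its run-on locus averaged 55.2 CPM in PC and 131 CPM in MC (-0.83 ± 0.20, adjusted p = 0.0321), and the gene 14.9 CPM in PC and 2.38 CPM in MC (3.26 ± 0.39, adjusted p = 0.00163, edgeR). rab21 encodes a small GTPase of endosomes: its run-on locus averaged 20.8 CPM in PC and 51.9 CPM in MC (-1.08 ± 0.28, adjusted p = 0.0406), and the gene 55.4 CPM in PC and 16.9 CPM in MC (2.07 ± 0.23, adjusted p = 0.00128, edgeR). The calls of the run-on loci of sec16a and rab21 were each lost in 5 of 15 alternatives, among them sec16a without PC fish 12 or 24 or MC fish 10, and rab21 without PC fish 11 or 23 or MC fish 22. The 3 pairs lower together were those of dolpp1, brinp1 and ndufab1. Over the 1773 pairs the Spearman correlation of the 2 fold changes was 0.19, a description only, since both members of a pair come from the same libraries. The difference between a run-on locus and its gene was not tested pair by pair.

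**Figure D5:**
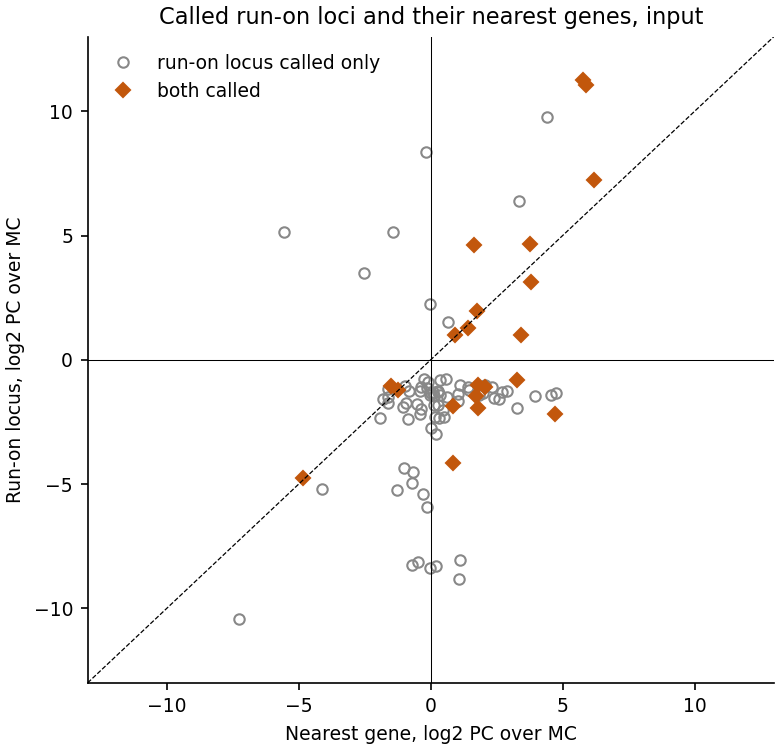
Fitted log2 fold change of PC over MC in input for the 96 called run-on loci (vertical axis) and their nearest genes (horizontal axis). Filled diamonds mark pairs in which the gene was called too, the dashed line equal change, and 8 of the diamonds lie at lower right, with the run-on locus lower and the gene higher in PC, which is 10.3% of the 78 called lower, against 10.7% of all annotated genes called higher.

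Presence in 1 species was rare on both sides. Depth was not equalised for these counts. The PC mirror inputs held 22058698 and 23594320 counts and the other inputs 10073251 to 12190271, which makes detection easier in PC. 40 run-on loci (0.936%) had counts in all 4 PC inputs and in no MC input, and 35 (0.819%) in all 4 MC inputs and in no PC input. Of annotated genes, 0.845% and 0.0968% did so. With at least 10 counts in each library of the species that has them, 8 run-on loci (0.187%) were seen in PC inputs alone and 10 (0.234%) in MC inputs alone, against 0.282% and 0.0308% of annotated genes. Those of lingo2, lamp5, qrsl1 and ankrd6 were among the 10 seen in MC.

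No run-on locus passed between mirror and control fish in input (0.0104% of all loci did, 0.00348% higher and 0.00696% lower), with 56 of the 2237 tested at an unadjusted p under 0.05, and DESeq2 called 7, or 0.313%, against 0.484% of all loci. The smallest p belonged to the run-on locus of sdhd, the gene of a membrane anchor subunit of succinate dehydrogenase, 385 bp after the gene on linkage group 14. It had 188 and 187 counts in PC mirror fish, 89 and 67 in MC mirror fish, and 0 in all 4 controls. That is a log2 ratio of mirror to control of at least 6.86, with 3 counts over the 4 controls as the floor, and the groups did not overlap in either species or batch. The adjusted p was 0.16 (edgeR; unadjusted p = 6.69e-05) and ran from 2.69e-10 to 1 over 15 alternatives, of which 10 were under 0.05. The sdhd gene had 45.9 to 150 CPM in mirror fish and 89.3 to 159 CPM in controls. In IP the locus had 8 counts in PC mirror fish 12, 81 in PC control fish 11 and at most 3 in any other fish, and its mirror and control fish overlapped. In all, 6 run-on loci (0.14%) had counts in the 4 mirror inputs and none in the 4 controls, and 5 (0.117%) the reverse, against 0.0264% and 0.0484% of annotated genes. Depth was not equalised here either, and the PC mirror inputs were the deepest.

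The next 2 by p were the run-on loci of LOC101487952 and cckar, a cholecystokinin receptor gene. The locus of LOC101487952 had 117 and 142 CPM in PC mirror fish, 234 and 235 in MC mirror fish, 65.3 and 108 in PC controls and 98.0 and 110 in MC controls. All 4 mirror fish were above all 4 controls (0.94 ± 0.18 SE, adjusted p = 0.471, edgeR; 3 of 15 alternatives under 0.05). The locus of cckar had 222 and 87 counts in PC mirror fish, 125 and 105 in MC mirror fish, 0 and 0 in PC controls and 77 and 98 in MC controls, so that only the PC controls lacked counts (4.99 ± 0.80 SE, adjusted p = 0.335, edgeR), and the MC groups overlapped in CPM.

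In IP, 431 run-on loci could be tested, and none passed between the species (0.815% of all 10304 loci did, 0.708% higher and 0.107% lower, 3 run-on loci had an unadjusted p under 0.05, and DESeq2 called 30, or 6.96%, against 13.7% of all loci). None passed between mirror and control fish (0.097% of all loci did, 0.0679% higher and 0.0291% lower, 2 run-on loci under 0.05 unadjusted, DESeq2 16, or 3.71%, against 8.45% of all loci). For the PC minus MC difference of IP enrichment none of 2279 passed (0.0372% of all loci did, 123 run-on loci were under 0.05 unadjusted, DESeq2 called 67, or 2.94%, against 8.6% of all loci, and the replicate block 1 with 0.0878% of all loci), and the smallest p, after the mitochondrial locus above, belonged to those of ube2z and rps10. The locus of rps10 had 157, 2, 286 and 10 IP counts in PC fish and 0 in all 4 MC fish, with 506 to 1465 input counts in PC and 515 to 807 in MC (adjusted p = 0.369, edgeR). For the mirror minus control difference none passed (0% of all loci, 91 run-on loci under 0.05 unadjusted, DESeq2 48, or 2.11%, against 6.15% of all loci), and the smallest p belonged to those of zic2, kif19 and sdhd.

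Run-on loci lay next to 3939 of all 30487 annotated genes, and no share of a gene list was tested against that. Immediate early and activity-induced genes had 2 (fosl1 and dusp6, mean input levels of at most 1.96 CPM), next to 2 of 22 listed genes found. Neuropeptides and granins had 2 (gnrh1 and cck, 2 of 21 genes), and pan-neuronal and synaptic genes 2 (nlgn1 and gad1, 2 of 14). Radial glia and astrocyte genes had 3 (3 of 10 genes), myelin and oligodendrocyte genes 4 (4 of 9) and microglia, macrophage and blood genes 1 (1 of 6). Endothelial and mural genes had 2 (2 of 11) and chromatin and splicing genes 7 (6 of 44). Between the species in input, 2 of the immediate early loci and 3 of the chromatin and splicing loci were tested. In the neuropeptide list 0 were tested, and in each other list named so far 1 was. None was called, where 4.87% of all run-on loci tested and 10.4% of all loci tested were (edgeR). With so few tested, no conclusion is drawn. Of the 20 next to neurotransmitter receptors and ion channels (18 of 47 genes), 12 were tested, with a median log2 fold change of -2.24. Of the 15 next to ribosomal protein and translation factor genes (14 of 80 genes), 8 were tested, with a median of -0.76. Among these, 1 was called lower (rpl31), while its gene was called higher (0.83, adjusted p = 0.00542, edgeR). Over all loci tested the median was 0.03.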

How the data were processed

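RNA of 16 libraries (8 fish, IP and input) was measured by sequencing. The authors deposited raw read counts for 61384 assembled loci, and per the submitters' processing notes used cutadapt, HISAT2, StringTie and DESeq2. Their versions and the build are not given here. DESeq2 tables of log2 fold changes and p-values, deposited by the authors, are used only in the closing observations. Linkage groups were read from gene symbols that carry their number. Run-on loci are those with class code p and at least 1 count. Their members and the 10 gene lists were chosen with earlier results of these data known.

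Counts were tested in R 4.3.3 with edgeR 4.0.16 (quasi-likelihood, TMM, filterByExpr, species by condition by fraction groups plus batch), over all loci that passed the filter, with Benjamini-Hochberg adjustment. IP comparisons used all 16 libraries, species and mirror comparisons the 8 of 1 fraction. DESeq2 1.42.0 was an alternative. The edgeR step was tested on simulated data. CPM are counts divided by the library total and multiplied by 1000000, without TMM. Library values were compared by exact sign-flip tests over the 8 fish or exact permutation tests of 4 fish against 4, all two-sided, adjusted over 12 tests (8 planned and 4 added after seeing the data). The expected number of loci detected was computed at the smallest library's 1872019 counts. Floors and intervals (95%) cover counting error only. A fish's IP and input share its label, which is the pairing used as the replicate block. Over 854 abundant loci, differences between the 2 fish of a group correlated between fractions at 0.22 and 0.51 in PC and 0.06 and 0.18 in MC.

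Run-on loci named are the 8 with most mean input and 5 with most mean IP CPM, and per comparison up to 8 higher and 8 lower past an adjusted p of 0.05 with mean log2 CPM above 1 and groups (or all 8 fish) without overlap, by fold. Where none passed, the 3 smallest p are named, and up to 3 per gene list by input CPM. Others were chosen after their values were seen and are given as such. Replicates are separate fish. Some loci that meet these rules are not reported here.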

Additional observations from a re-analysis of the deposited data

Results flagged for a closer look

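The number of run-on loci expected at equal depth fell less from input in PC fish than in MC fish: the IP minus input difference was -1537 ± 101.2 for PC fish and -2021 ± 282 for MC fish (n = 4 each, SD), a PC minus MC difference of 484 (exact permutation test, two-sided, p = 0.0286, adjusted p = 0.0429). MC inputs started from more detected loci, and the number was not computed for other classes of locus. The same difference of the share of counts (p = 0.314) and of the log2 ratio to genes (p = 0.4) did not pass the exact permutation test.

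Some single libraries stood apart from the other 3 of their species and fraction, which chance gives in about 1 of 20 groups, and 96 groups were screened. Where the other 3 libraries have 0 counts, any count meets the rule, so that rate does not apply there. In the IP of MC mirror fish 21 run-on loci took 1.62% of counts, against 1.17% to 1.21% in the other MC fish. In the IP of PC mirror fish 23, 315 run-on loci were detected, against 519 to 536 in the other PC fish. Among single loci, MC control fish 22 stood apart at ppargc1a (8.74 CPM, others 20.6 to 22.7), LOC101473996 (70.7 CPM, others 111 to 118), LOC112429744 (4.67 CPM, others 0 to 0.469) and LOC101477803 (2.98 CPM, others 0). It held the 1 MC count, 0.0993 CPM, of both LOC112432334 and LOC112434605. MC mirror fish 9 stood apart at LOC101487210 (15.2 CPM, others 3.39 to 4.67) and itgb3 (0.191 CPM, others 0).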

How the results depend on the processing

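The IP minus input and PC minus MC differences of the share of counts and of the detected number kept their direction in every alternative run, and their side of the threshold in those that had a test, as did the PC minus MC log2 ratio. Values within 1 batch, and species and mirror values with 1 fish left out, have no test. The mirror minus control difference of the share, which did not pass, turned negative in batch b alone (-0.00788) and without PC fish 11 or 24 or MC fish 9 or 21 (lowest -0.116), and that of the log2 ratio without PC fish 24 or MC fish 9 or 21 (lowest -0.178). The IP minus input log2 ratio was 0.00542 as a median over pairs, a median that was 0 in every IP library. The summed ratio lost its call without the replicate block (-0.784, exact permutation p = 0.0957). Run-on loci called between IP and input numbered 1504, but 2 with fish as a replicate block, 679 with a filter of at least 10 counts, and 879 (without MC mirror fish 9) to 1095 with 1 fish left out, moving by over 1.5 times also without PC fish 11 or 23 or MC fish 10 or 21. Against the 109 called between the species in input, DESeq2 gave 308, no low-count filter 171 and all 16 libraries in 1 fit 0. That last fit called 0 of all 29597 loci. Leaving out 1 fish gave 69 (without MC control fish 10) to 191 (without MC mirror fish 9). Each of the 109 kept its sign in each of these fits in which it was tested. Of mirror calls in input, 0 became 7 with DESeq2, 13 with no low-count filter and 1 to 12 with 1 fish left out, where the filter also lets more loci through. In IP, PC against MC went to 30 with DESeq2, 1 with RLE size factors and 1 with all 16 libraries in 1 fit, and mirror against control to 16 with DESeq2. For the PC minus MC difference of IP enrichment DESeq2 gave 67 and the replicate block 1, and for the mirror minus control difference DESeq2 gave 48 and the replicate block 0. The causes were not tested. Pairing by the table's reference transcript, library totals without TMM and leaving out the mitochondrial locus were chosen after seeing the data. The median run-on locus had 0.571 CPM in input, and 2769 had no IP count. Depth limits what can be seen in IP. At an equal depth 352 run-on loci were expected in IP, against 2131 in input, a number not computed for other classes of locus.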

Other observations

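In the authors' deposited table of IP against input, 1489 of 2929 run-on loci with an adjusted p were under 0.05 (50.8%, against 44.6% of all loci), 71 of them higher and 1418 lower by its sign. In the authors' deposited table of the mirror effect on IP enrichment 35 of 1019 were under 0.05 (3.43%, against 4.22% of all loci), and in the authors' deposited table of its species difference 32 of 711 (4.50%, against 6.63%). The locus of slc5a5 had a log2 fold change of 1.53 in the authors' deposited table of IP against input (adjusted p = 0.0111).

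The locus of timm8b and that of sdhd lie within the same stretch of linkage group 14, at 651027 to 651857 and 662719 to 663258, with both genes between them. In input, the first differed between the species and the second had counts in the mirror fish alone; in IP the second also had 81 counts in PC control fish 11.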
